A study of Mus musculus with 10 samples.

Results

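The numbered Zfp genes are mouse protein-coding genes named Zfp and a number, most of them for zinc finger proteins. Of 364 such genes with transcripts in the deposited tables (Zfp36, the gene of an RNA-binding protein, was set aside), 240 had at least 300 estimated counts summed over all 10 libraries, out of 45321 genes in all. The other 124 were below this total and 9 of them were at 0 counts. The members were chosen by their summed estimated counts over all libraries. The 5 stimulated libraries held 38.4% of all counts and the 5 unstimulated ones 61.6%, so the sum weights the unstimulated state more, and a gene near the threshold can pass mainly through it. Zfp30, for example, had a mean TPM (a level scaled for transcript length and library total) of 0.101 in Compound 10 stimulated, 0.103 in vehicle stimulated, 0.552 in Compound 10 unstimulated and 1.73 in vehicle unstimulated cells. Just inside the threshold stood Zfp931, Zfp446 and Zfp30 with 323.8, 328.6 and 337.8 counts in all, and just outside it Zfp341, Zfp78 and Zfp185 with 285.7, 288.0 and 289.0. All 240 passed the filter on low counts and were tested among 14417 genes.

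RNA was measured in splenic CD4 T cells of C57BL/6 mice, sorted as CD4+CD62L+CD69- naive cells, helper T cells before any contact with antigen. All groups were pretreated for 1 h, with 12.5 µM Compound 10 or with its solvent DMSO (vehicle), and were then kept unstimulated or given 10 nM PMA and 1 µM ionomycin for 2 h. PMA activates protein kinase C and ionomycin lets calcium into the cell, so together they act downstream of the antigen receptor. According to the design text the compound inhibits NFAT:AP-1, a complex that the transcription factor NFAT forms with Fos and Jun proteins on DNA. The groups were Compound 10 stimulated (n = 3), vehicle stimulated (n = 2), Compound 10 unstimulated (n = 2) and vehicle unstimulated (n = 3). Whether replicate libraries came from different mice or cultures is not labelled. All p-values therefore rest on the variation among these libraries, which could be purely technical.

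A C2H2 zinc finger is a short fold held by a zinc ion between a pair of cysteines and a pair of histidines, and proteins with rows of such fingers bind DNA by reading a few bases with each finger. Many of them begin with a KRAB domain, which recruits the corepressor Trim28 and with it heterochromatin enzymes, and KRAB zinc finger proteins are known for silencing retroelements. KRAB zinc finger genes arose by repeated tandem duplication and lie in clusters of similar genes. Others among the numbered Zfp genes have no KRAB domain and act as activators, in ribosome assembly or in cell division.

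The coding bases of the first full finger (Cys, 2 residues, Cys, 12 residues, His, 3 residues, His) of 5 members are shown because these members head the comparisons that follow. Codons of the cysteines and histidines are in capitals, and the bases are those of the mm10 annotation in the direction of the gene.
Zfp948 (chr17:21587193-21587255, + strand): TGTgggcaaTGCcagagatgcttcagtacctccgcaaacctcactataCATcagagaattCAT
Zfp53 (chr17:21508388-21508450, + strand): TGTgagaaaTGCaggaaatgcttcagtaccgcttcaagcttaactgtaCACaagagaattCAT
Zfp386 (chr12:116059804-116059866, + strand): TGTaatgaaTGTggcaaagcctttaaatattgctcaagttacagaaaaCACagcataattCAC
Zfp189 (chr4:49529292-49529354, + strand): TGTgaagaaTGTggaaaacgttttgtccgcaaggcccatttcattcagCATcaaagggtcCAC
Zfp426 (chr9:20470925-20470987, - strand): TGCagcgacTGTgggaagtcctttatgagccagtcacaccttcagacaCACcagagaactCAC
Of the 21 residues of this finger, the fingers of Zfp53, Zfp386, Zfp189 and Zfp426 share 12, 6, 8 and 8 with that of Zfp948, the zinc-binding residues included. Zfp53 lies in the same cluster on chromosome 17 as Zfp948.

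A KRAB-like pattern (8 of 10 conserved positions) was found in the annotated protein of 133 members and not in that of 107. Finger patterns numbered between 0 and 37 with a median of 11, and 139 members had at least 10. Zfp330, Zfp703 and Zfp935 had none. On the chromosomes, 111 members lay in 16 clusters of at least 4 members spaced by at most 500 kb. Chromosome 7 held 59 members, chromosome 17 held 32 and chromosome 13 held 20, and the largest cluster was that of 18 members on chromosome 17 (21008903 to 23564238), from Zfp160 to Zfp213.

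Libraries held between 10694591 and 33486259 estimated counts, of which the members took between 42580 and 197733. Markers of CD4 T cells (10 of 10 found) summed to between 2552 and 3963 CPM, counts scaled to a common library total, and naive cell markers (6 of 6) to 1514 to 1553 in Compound 10 stimulated, 1053 to 1172 in vehicle stimulated, 2283 to 2603 in Compound 10 unstimulated and 2272 to 2641 in vehicle unstimulated libraries. Markers of B cells (2.27 to 9.32), CD8 T cells (1.98 to 8.60), myeloid cells (0.611 to 4.26), NK cells (0.752 to 4.72) and erythroid cells (0 to 0.643) were near 0 in all 10 libraries. Regulatory T cell markers, which include the activation-induced gene Il2ra, summed to 39.4 to 68.6 in Compound 10 stimulated, 126 to 165 in vehicle stimulated, 34.9 to 44.2 in Compound 10 unstimulated and 22.3 to 40.3 in vehicle unstimulated libraries. In such bulk samples fewer cells of a type and less RNA per cell cannot be told apart. Sequence shared with another gene bears on single members: in 43 of them another gene held at least 20% of the 31-base words, among the genes named below Zfp593 (69.7%, antisense E130218I03Rik), Zfp97 (84.9%, Zfp960), Zfp784 (94.8%, antisense Zfp865), Zfp984 (58.8%, Gm13212), Zfp85 (40.5%, Zfp273), Zfp330 (29.5%, Gm7785) and Zfp764 (31.1%, 9130019O22Rik), whose levels are therefore uncertain. The kit does not mark strand. Reads from stretches of Zfp740, Zfp143, Zfp689, Zfp52 and Zfp335 that overlap an antisense gene could therefore not be told apart from its reads. Other genes together held 2.2%, 0.0%, 15.1%, 10.7% and 23.9% of the 31-base words of their most counted transcripts.

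Members of the family were expressed at low to moderate level. The mean TPM of a member over all libraries lay between 0.521 and 104 with a median of 6.25, 88 members had at least 10 and 7 had below 1. The highest were Zfp207 (104 TPM), whose protein BuGZ binds Bub3 at the spindle, Zfp592 (92 TPM), whose protein joins a transcriptional complex with Zmynd8, and Zfp263 (82.8 TPM). They were followed by Zfp622 (72.1 TPM) and the nucleolar protein gene Zfp330 (72.0 TPM), then the BTB-domain factor gene Zfp131 (68.3 TPM), Zfp68 (61.4 TPM) and Zfp664 (56.1 TPM).

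The level of a typical member was lowest in stimulated cells given Compound 10. The median member level (log2 CPM, scaled with TMM factors) was 2.75, 2.78 and 2.74 in Compound 10 stimulated, 3.24 and 3.14 in vehicle stimulated, 3.50 and 3.29 in Compound 10 unstimulated, and 3.69, 3.57 and 3.60 in vehicle unstimulated libraries. The 4 groups did not overlap, and stimulated libraries lay below unstimulated ones under either pretreatment. The summed level of the members moved less, and overlapped between groups: 4827 ± 151 CPM (SD, n = 3) in Compound 10 stimulated, 5434 ± 68.6 (n = 2) in vehicle stimulated, 5156 ± 272 (n = 2) in Compound 10 unstimulated and 5636 ± 340 CPM (n = 3) in vehicle unstimulated cells. A sum gives more weight to abundant members. Of the 8 members with the highest TPM, Zfp592, Zfp622, Zfp330 and Zfp131 rose with stimulation under vehicle. Zfp207 fell, and Zfp263, Zfp68 and Zfp664 were not called. The part of these members in the sum was not tested. As a share of the library total, without TMM factors, the sums were 3931 ± 245 CPM in Compound 10 stimulated, 4098 ± 136 in vehicle stimulated, 6322 ± 533 in Compound 10 unstimulated and 7286 ± 563 in vehicle unstimulated cells.

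**Figure D1:**
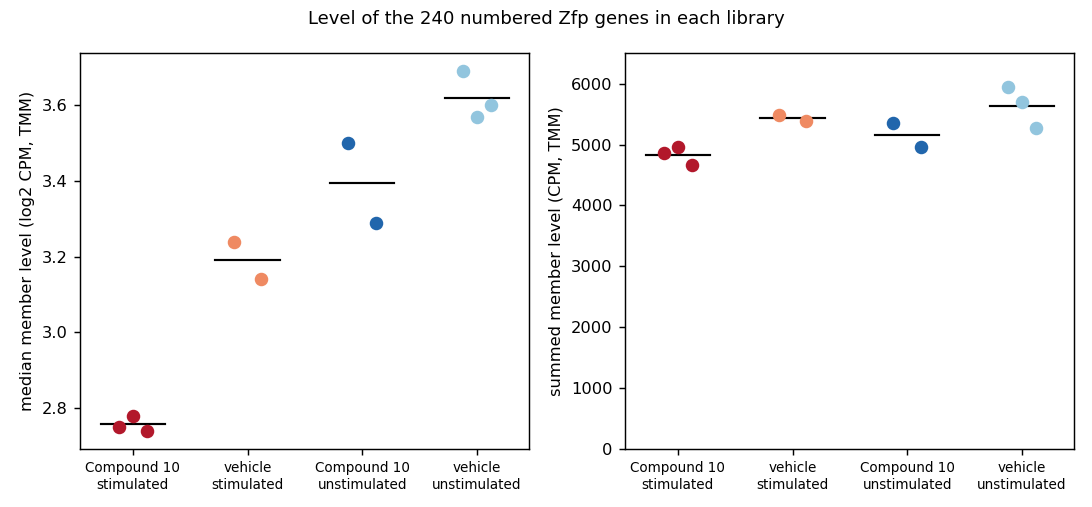
Left, the median of the 240 members' log2 CPM in each library; right, their summed CPM (axis from 0). Points are libraries, bars are group means, and CPM is scaled with TMM factors; on the left the Compound 10 stimulated libraries lie between 2.74 and 2.78, below every other library.

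The first comparison asked what stimulation did to these genes in cells without the compound. Of the 240 members, 28 rose and 88 fell with PMA and ionomycin (adjusted p under 0.05, edgeR's quasi-likelihood test over all genes), beside 19.5% of all tested genes called higher and 19.5% called lower. That is 11.7% of the members higher and 36.7% lower. The median log2 fold change of the members was -0.59 and that of all tested genes -0.06, and 164 members lay below 0. Among all tested protein-coding genes, 20.2% were higher and 22.5% lower. The 11034 tested genes that also reached 300 counts in all had 22.6% higher, 24% lower and a median of -0.09, and their medians in the comparisons that follow lay between -0.05 and 0.02.

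The counts of falls and rises depended on scaling and on a library of the smallest groups. With library totals in place of TMM factors, which moved the median of all tested genes to -0.83, the members' median was -1.36 and 5 members were higher and 165 lower. Without vehicle stimulated replicate 1, 53 members were lower.

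**Figure D2:**
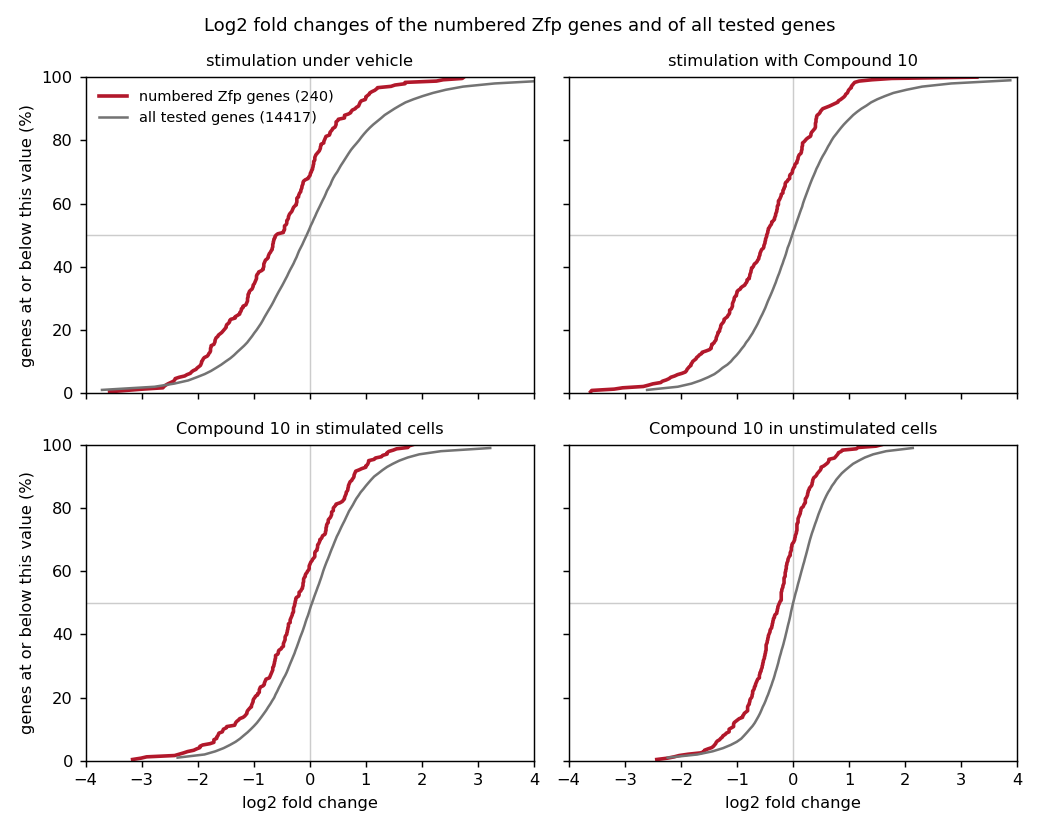
Cumulative distribution of log2 fold changes for the 240 numbered Zfp genes (red) and all 14417 tested genes (grey, drawn between their first and last percentile) in 4 comparisons. In each panel the members' curve lies left of that of all genes at the 50% line, by most for stimulation under vehicle (medians -0.59 and -0.06).

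The members that rose most clearly under vehicle included genes of ribosome assembly. Zfp593, whose protein is related to a yeast factor of large ribosomal subunit export, had 53.3 and 58.2 CPM in stimulated against 10.2, 9.74 and 5.62 CPM in unstimulated vehicle libraries. Its log2 fold change was 2.72 ± 0.25 (SE; edgeR adjusted p = 5.31e-06), but 69.7% of its 31-base words also belong to an antisense gene. Zfp622, the relative of a yeast factor that matures the large subunit in the cytoplasm, had 203 and 225 against 104, 105 and 114 CPM (0.99 ± 0.14, edgeR adjusted p = 0.000154). The groups did not overlap for either gene. The nucleolar gene Zfp330 had 103 and 101 CPM in stimulated against 63.8, 55.2 and 64.9 CPM in unstimulated libraries (0.73 ± 0.16, edgeR adjusted p = 0.00289). With library totals only, Zfp622 was no longer called (0.22) and the value of Zfp330 turned to -0.04.

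Several regulators of transcription rose as well. Zfp655 had 157 and 164 CPM in stimulated against 74.4, 71.5 and 65.2 CPM in unstimulated vehicle cells (1.19 ± 0.15, edgeR adjusted p = 8.27e-05). Zfp703, a corepressor gene amplified in human breast cancer, had 37.5 and 37.0 against 10.5, 9.74 and 13.9 CPM (1.70 ± 0.24, edgeR adjusted p = 0.000139). Zfp281, a pluripotency regulator in mouse embryonic stem cells, had 253 and 229 against 133, 127 and 101 CPM (1.00 ± 0.15, edgeR adjusted p = 0.000258). All libraries of the stimulated group stood above those of the unstimulated group in these 3 genes. Zfp131 had 219 and 216 against 116, 91.0 and 105 CPM (1.07 ± 0.17). Zfp91, a ubiquitin ligase gene of the non-canonical NF-kB pathway, had 50.2 and 46.4 against 24.0, 24.5 and 29 CPM (0.90 ± 0.17). Zfp827, which brings the NuRD complex to telomeres in human cells, had 19.3 and 10.8 against 3.34, 2.14 and 1.29 CPM (2.75 ± 0.40). With library totals only, Zfp655 (0.41), Zfp281 (0.22), Zfp131 (0.29) and Zfp91 (0.13) were no longer called. Zfp592 was called at 0.83 ± 0.24 (230 and 202 against 153, 133 and 77.9 CPM), but not with library totals (0.05) nor without either vehicle stimulated library (edgeR adjusted p = 0.121 and 0.0526).

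Among the falls were some of the largest shifts of the family. Zfp740 had 10.8 and 9 CPM in stimulated against 34.4, 46.4 and 40.5 CPM in unstimulated vehicle cells, a log2 fold change of -2.03 ± 0.21 (edgeR adjusted p = 1.3e-05). Zfp949 had 4.51 and 5.19 against 24.0, 25.8 and 28.1 CPM (-2.41 ± 0.26, edgeR adjusted p = 2.07e-05). Zfp386 had 12.7 and 11.4 against 50.3, 48.2 and 54.3 CPM (-2.08 ± 0.20, edgeR adjusted p = 6.96e-06). No stimulated library came near an unstimulated one in these genes. Zfp637 fell by 2.11 and Zfp101 by 1.93 on the log2 scale, and Zfp512 by 1.76. The last had 10.8 and 9.43 against 35.6, 31.9 and 35.0 CPM.

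Of 20 members with a described role that were looked at in every comparison, 3 rose with stimulation under vehicle (Zfp281, Zfp131 and Zfp91), 6 fell and 11 were not called. Zfp148, a GC-box binding factor related to Zfp281, fell by 0.83 on the log2 scale (47.1 and 48.7 in stimulated against 90.9, 90.3 and 74.0 CPM in unstimulated cells), opposite to its relative. Zfp143, the activator of small nuclear RNA genes, fell by 1.08, with its call lost without vehicle stimulated replicate 1 or 2 (edgeR adjusted p = 0.0595 and 0.0504). Zfp64, which drives the MLL gene in human leukaemia, fell by 1.25. Zfp318, needed for IgD expression in B cells, fell by 1.49 at 2.32 and 1.64 against 6.52, 6.43 and 3.61 CPM, and was not called without vehicle stimulated replicate 2 (edgeR adjusted p = 0.109). Zfp292 fell by 1.10 and was not called without vehicle unstimulated replicate 2 (edgeR adjusted p = 0.0606) nor without either vehicle stimulated library (0.0604 and 0.135). Zfp207, the member with the highest level per length, fell by 0.82 (143 and 135 against 244, 217 and 275 CPM), but counting protein-coding transcripts alone gave -0.37 and no call (edgeR adjusted p = 0.107).

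The next comparison put the same question to cells given Compound 10. With the compound, stimulation raised 12 members and lowered 81, which is 5% and 33.8% of the members. Of all tested genes 12.9% were called higher and 13.7% lower, and of the 11034 that reached 300 counts 15% and 17.3%. The members' median log2 fold change was -0.47 and that of all tested genes -0.01, with 169 members below 0. With library totals only, 4 members were higher and 140 lower, and the medians were -1.05 and -0.60. Without Compound 10 unstimulated replicate 2, 6 members were higher.

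The stimulation effects with Compound 10 and under vehicle rest on separate libraries. Across the 240 members their log2 fold changes had a Pearson r of 0.69 and a Spearman rho of 0.67, a description across genes measured in the same libraries. Across all tested genes these were 0.62 and 0.63. In 191 members (79.6%) the sign was shared, beside 73.0% of all tested genes. Of the members called in both, 12 were higher in both (18.5%), 53 lower in both (81.5%) and 0 opposite, beside 52.6%, 45.3% and 2.15% of the 2788 tested genes called in both. A further 51 passed the test for vehicle and not for the compound, and 28 for the compound and not for vehicle, which does not by itself show a difference.

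Zfp948 stood apart among the rises. This KRAB zinc finger gene of the chromosome 17 cluster (21567008 to 21588699) had 105, 153 and 131 CPM in stimulated against 12.5 and 14.1 CPM in unstimulated Compound 10 libraries, a log2 fold change of 3.28 ± 0.24 (edgeR adjusted p = 2.74e-06). Under vehicle it had 76.5 and 91.3 against 23.4, 28.1 and 36.3 CPM, and rose by 1.52 ± 0.21 (edgeR adjusted p = 0.000137). Stimulated and unstimulated libraries did not overlap under either pretreatment. Zfp330 had 105, 129 and 140 against 57.3 and 52.6 CPM with the compound (1.18 ± 0.17, edgeR adjusted p = 0.000317). Zfp593 rose by 1.76, Zfp131 by 1.08, Zfp703 by 1.04 and Zfp281 by 0.94 with the compound. Zfp703 was not called without Compound 10 unstimulated replicate 1 (edgeR adjusted p = 0.0759), and Zfp281 (0.35) and Zfp703 (0.46) not with library totals only. Zfp592 rose by 0.98, but was not called with library totals (0.39) nor without Compound 10 unstimulated replicate 2 (edgeR adjusted p = 0.133). Zfp622 rose by 0.51 and turned to -0.08 with library totals. It was not called without a filter on low counts (edgeR adjusted p = 0.140), nor without Compound 10 unstimulated replicate 1 or 2 (0.132 and 0.0766) or Compound 10 stimulated replicate 3 (0.0554).

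The falls with the compound were led by Zfp949 and Zfp53. Zfp949 had 4.64, 4.37 and 6.55 CPM in stimulated against 26.1 and 35.9 CPM in unstimulated Compound 10 libraries (-2.58 ± 0.24, edgeR adjusted p = 1.38e-05), close to its values under vehicle. Zfp53, of the same cluster as Zfp948, had 15.3, 22.9 and 22.8 against 104 and 80.8 CPM (-2.18 ± 0.20, edgeR adjusted p = 1.38e-05). Zfp46 had 3.76, 3.94 and 3.80 against 28.7 and 20.3 CPM (-2.67 ± 0.27, edgeR adjusted p = 2.97e-05). In these 3 genes each stimulated library was below each unstimulated one. Zfp740 had 9.06, 9.25 and 9.20 against 35.6 and 31.6 CPM, and Zfp101 had 9.29, 9.51 and 11.1 against 44.9 and 38.6 CPM, falls of 1.87 and 2.06 on the log2 scale. Zfp85 fell by 3.19 and Zfp51 by 1.26. Of the 20 members with a described role, 2 rose (Zfp281 and Zfp131), 5 fell (Zfp148, Zfp207, Zfp143, Zfp809 and Zfp263) and 13 were not called. Zfp263 fell by 0.61, at 91.6, 95.3 and 102 against 141 and 153 CPM. Zfp809, which silences proline-primed retroviruses in mouse embryonic cells, fell by 0.60, and was not called without Compound 10 unstimulated replicate 1 or 2 (edgeR adjusted p = 0.0943 and 0.0648) or Compound 10 stimulated replicate 1 or 2 (0.0726 and 0.0608). Zfp148 fell by 0.49, and its edgeR adjusted p lay between 0.0545 and 0.157 without any 1 of 7 libraries, which were the 5 Compound 10 libraries and the 2 vehicle stimulated ones. Zfp143 fell by 0.98, and was not called without Compound 10 unstimulated replicate 1 (edgeR adjusted p = 0.138) or Compound 10 stimulated replicate 1 (0.0579). Zfp207 fell by 0.69, and was not called without Compound 10 unstimulated replicate 2 (-0.41) or on protein-coding transcripts alone (-0.37).

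The third comparison asked what Compound 10 did in stimulated cells. It raised 14 members and lowered 51, which is 5.83% and 21.2% of the members. Of all tested genes 10.5% were called higher and 12.9% lower, and of the 11034 that reached 300 counts 13% and 16.4%. The median log2 fold change was -0.26 for the members and 0.04 for all tested genes, and 149 members lay below 0. Upper-quartile factors gave 24 higher and 43 lower with medians of -0.13 and 0.18, and 28 were higher with the runs of sample index numbers as a block. Without vehicle stimulated replicate 1 the counts were 5 higher and 28 lower, and without replicate 2 they were 6 and 27; without Compound 10 stimulated replicate 1 or 2, 9 were higher.

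Zfp189 had the lowest adjusted p of the falls. It had 0.995, 1.46 and 1.77 CPM in Compound 10 stimulated against 12 and 11.1 CPM in vehicle stimulated libraries, a log2 fold change of -3.01 ± 0.30 (edgeR adjusted p = 5.67e-05). Zfp748, a KRAB gene of the chromosome 13 cluster, had 9.73, 9.51 and 8.93 against 32.4 and 31.9 CPM (-1.78 ± 0.21, edgeR adjusted p = 0.000141). Zfp689 had 3.10, 4.88 and 3.71 against 17.4 and 18.3 CPM (-2.18 ± 0.27, edgeR adjusted p = 0.000163). The pretreatment groups were well apart in each of these genes. Zfp790 had 7.52, 9.43 and 6.37 against 19.6 and 28.3 CPM (-1.63), Zfp472 had 16.3, 13.6 and 17.4 against 33.5 and 33.8 CPM (-1.09), and Zfp97, whose reads are largely shared with Zfp960, fell by 1.55. Zfp52 of the chromosome 17 cluster, with 15.7, 20.6 and 15.7 against 43.7 and 43.3 CPM, fell by 1.32.

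The rises with the compound in stimulated cells were led by Zfp426. It had 47.9, 42.5 and 47.5 CPM in Compound 10 stimulated against 13.3 and 12.6 CPM in vehicle stimulated libraries (1.83 ± 0.18, edgeR adjusted p = 5.38e-05). Zfp362 had 13.6, 6.51 and 11.3 against 2.45 and 3.64 CPM (1.76 ± 0.34, edgeR adjusted p = 0.00282), and Zfp7 had 16.1, 14.4 and 17 against 6.18 and 5.97 CPM (1.38 ± 0.27, edgeR adjusted p = 0.00292). No Compound 10 library overlapped a vehicle library in the 3 genes. Zfp68 rose by 0.62, Zfp277, whose protein binds the Polycomb protein Bmi1, by 0.80 and Zfp386 by 0.72. Without vehicle stimulated replicate 1 or 2 these were not called (edgeR adjusted p = 0.0903 and 0.0646 for Zfp68, 0.0950 and 0.0637 for Zfp277, 0.0769 and 0.140 for Zfp386). Zfp592 rose by 0.79 and Zfp54 by 1.49, and each lost the call without any 1 of several libraries, without vehicle stimulated replicate 1 among them (edgeR adjusted p = 0.133 and 0.203); without vehicle stimulated replicate 2 the value of Zfp54 was 3.09.

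Of the 20 members with a described role, Compound 10 raised 1 in stimulated cells and lowered 5, and 14 were not called. Zfp64 rose by 0.71. Its log2 fold change was 0.59 and 0.85 without vehicle stimulated replicate 1 or 2 and 0.64 without Compound 10 stimulated replicate 3, and it was then not called (edgeR adjusted p = 0.180, 0.0624 and 0.0514). Zfp263 had 91.6, 95.3 and 102 against 157 and 155 CPM and fell by 0.69 ± 0.14 (edgeR adjusted p = 0.00296). Zfp809 had 19.3, 21.1 and 23.6 against 31.2 and 37.3 CPM and fell by 0.68, and was not called without vehicle stimulated replicate 2 (edgeR adjusted p = 0.156). Zfp568, the repressor of a placental Igf2 promoter, had 1.44, 4.46 and 2.30 against 9.14 and 9 CPM and fell by 1.71, and was not called without vehicle stimulated replicate 1 or 2 (edgeR adjusted p = 0.0641 and 0.0609). Zfp143 fell by 1.04. Its log2 fold change was -1.06 and -1.01 without vehicle stimulated replicate 1 or 2 and -0.87 without Compound 10 stimulated replicate 1, and it was then not called (edgeR adjusted p = 0.0782, 0.0909 and 0.0512). Zfp706 fell by 0.89. Leaving out each of the 5 stimulated libraries in turn gave -1.01 to -0.76, and it was at -0.78 with library totals, and was not called in these fits (edgeR adjusted p between 0.0561 and 0.214).

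**Figure D3:**
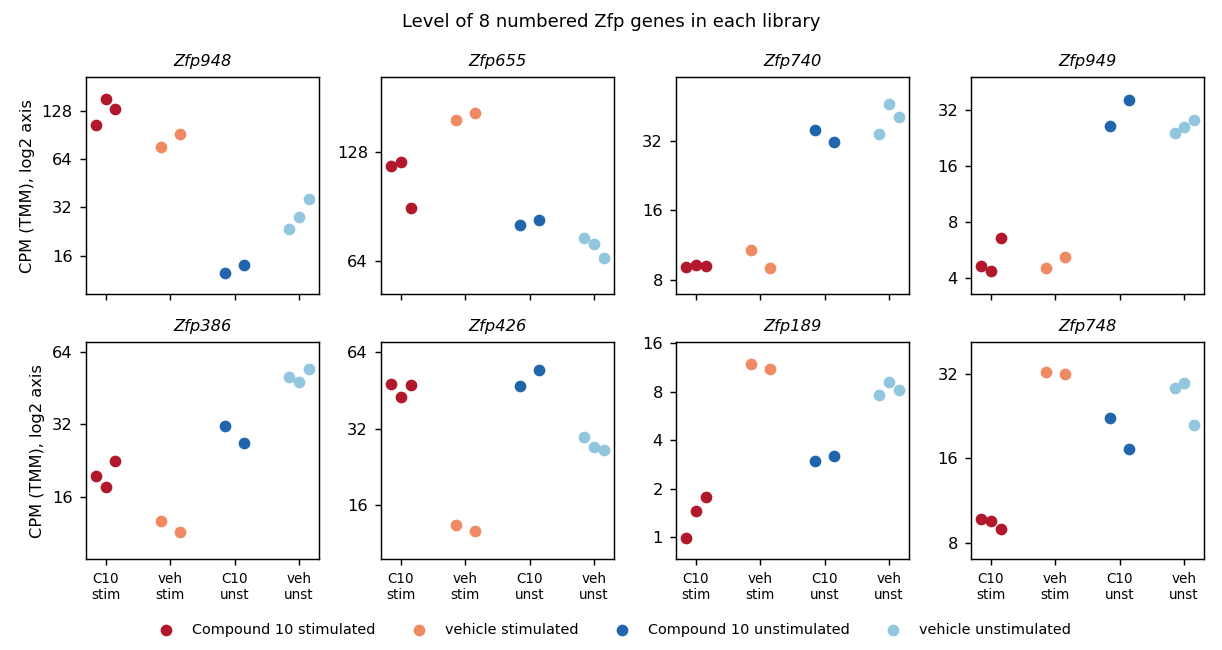
Level of 8 members in each library as CPM scaled with TMM factors, on log2 axes that differ between panels; C10 is Compound 10, veh is vehicle, stim is stimulated and unst is unstimulated. Zfp740 and Zfp949 split by stimulation under both pretreatments, and Zfp426 and Zfp189 differ between Compound 10 and vehicle in both states. Zfp189 also splits by stimulation, upward under vehicle and downward with Compound 10, and Zfp426 falls with it under vehicle.

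In unstimulated cells fewer members passed the test. Compound 10 raised 7 and lowered 17, which is 2.92% and 7.08% of the members. Of all tested genes 4.83% were called higher and 3.82% lower (8.65% in either direction). The shares were 5.96% and 4.67% of the 11034 tested genes that reached 300 counts. The median log2 fold change was -0.23 for the members and 0.00 for all tested genes, with 165 members below 0. Library totals gave 4 higher and 21 lower. With the index run (a run of sample index numbers, described with the within-run values) as a block 36 were lower, and by DESeq2 33 were lower. The counts fell to 2 higher and 3 lower without Compound 10 unstimulated replicate 2, and to 3 and 5 without vehicle unstimulated replicate 1. Without vehicle unstimulated replicate 2 they were 4 and 7, without vehicle stimulated replicate 1 or 2 they were 5 and 9 or 4 and 9, without Compound 10 stimulated replicate 2 they were 5 and 11, and without Compound 10 unstimulated replicate 1 they were 4 and 12.

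Zfp606 and Zfp362 were called without any 1 of the 10 libraries. Zfp606, a KRAB gene of chromosome 7, had 3.07 and 3.11 CPM in Compound 10 unstimulated against 10.7, 11.3 and 11.8 CPM in vehicle unstimulated libraries (-1.87 ± 0.27, edgeR adjusted p = 0.0026). Zfp362 had 22.8 and 23.2 against 7.12, 8.34 and 7.83 CPM (1.57 ± 0.29, edgeR adjusted p = 0.00784). The other named calls were lost without at least 1 library. Zfp426 (47.1 and 54.4 against 29.5, 27.0 and 26.4 CPM) rose by 0.88 and Zfp91 (41.1 and 52.4 against 24.0, 24.5 and 29 CPM) by 0.86, and neither was called without Compound 10 unstimulated replicate 2 (edgeR adjusted p = 0.0769 and 0.126). Zfp948 (12.5 and 14.1 against 23.4, 28.1 and 36.3 CPM) fell by 1.14 and Zfp189 (3.00 and 3.21 against 7.67, 9.18 and 8.23 CPM) by 1.42. Neither was called without Compound 10 unstimulated replicate 1 (0.0608 and 0.0599) or replicate 2 (0.0561 and 0.0779). Zfp386 fell by 0.80, Zfp689 by 1.19 and Zfp143 by 1.14, with edgeR adjusted p = 0.169, 0.175 and 0.192 without Compound 10 unstimulated replicate 2 and 0.0525, 0.0530 and 0.0753 without vehicle unstimulated replicate 1. For Zfp689 and Zfp143 it was 0.0523 and 0.0503 without vehicle unstimulated replicate 2. Zfp53 rose by 0.80, Zfp101 by 0.81 and Zfp367 by 0.74, and Zfp52 fell by 1.05; these 4 lost the call without vehicle unstimulated replicate 1 (edgeR adjusted p = 0.0736, 0.0898, 0.0766 and 0.0842) and without 3 to 5 other libraries each. Of the 20 members with a described role, Zfp91 was higher, Zfp143 lower and 18 were not called.

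The compound effects in stimulated and unstimulated cells also rest on separate libraries. Across members their Pearson r was 0.49 and Spearman rho 0.43, again a description across genes. For all tested genes these were 0.27 and 0.33. The sign was shared by 164 members (68.3%), beside 62.5% of all tested genes. Of 16 members called in both, 3 were higher in both (18.8%), 11 lower in both (68.8%) and 2 (Zfp386 and Zfp277) opposite (12.5%), beside 52.3%, 38.6% and 9.18% of the 643 tested genes called in both.

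The interaction asked whether stimulation moved a member differently with the compound than under vehicle. It called 15 members, 8 with a positive and 7 with a negative difference, beside 2.60% and 4.36% of all tested genes (6.96% in either direction). That is 6.25% of the members in either direction, near the background. With library totals the counts were 9 and 3, with the index run block 13 and 17, and 14 were negative by DESeq2. Without vehicle stimulated replicate 1 they were 1 and 0, and without replicate 2 they were 3 and 0; without each of the other libraries they lay between 4 and 10 and between 2 and 10. The members' median difference was -0.02.

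**Figure D4:**
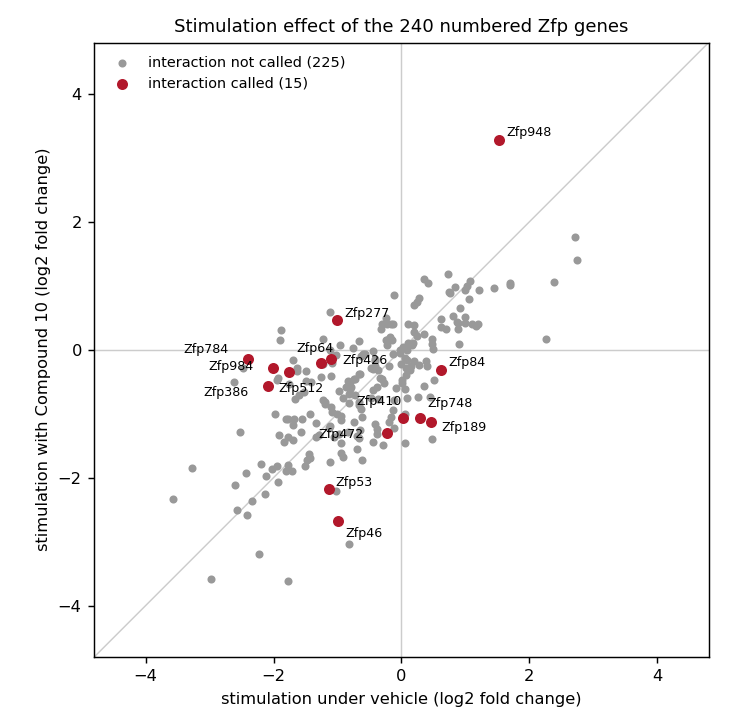
Log2 fold change of stimulation with Compound 10 (vertical) against that under vehicle (horizontal) for the 240 members; the diagonal marks equal effects and red points are the 15 members whose interaction was called. Zfp948 lies far above the diagonal at 3.28 and 1.52, and Zfp46 and Zfp53 lie below it. Of the 15, only Zfp386 kept its call in every fit that left out 1 library.

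Zfp386 had the smallest adjusted p of the interaction, with a difference of 1.52 ± 0.26 (edgeR adjusted p = 0.0067). It had 19.5, 17.6 and 22.5 CPM in Compound 10 stimulated, 12.7 and 11.4 in vehicle stimulated, 31.6 and 26.8 in Compound 10 unstimulated and 50.3, 48.2 and 54.3 CPM in vehicle unstimulated libraries. Compound 10 libraries were thus above vehicle libraries after stimulation and below them without it. Zfp948 had a difference of 1.76 ± 0.31 (edgeR adjusted p = 0.0072), and 1.65 (0.0590) without vehicle stimulated replicate 1. Zfp277 (1.48) was not called without that library either (edgeR adjusted p = 0.0614), and Zfp512 (1.41) not without it or vehicle stimulated replicate 2 (0.0556 and 0.0761). Zfp386 was called without any 1 library.

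On the negative side, Zfp748 had a difference of -1.35 ± 0.29 (edgeR adjusted p = 0.0184), with 9.73, 9.51 and 8.93 CPM in Compound 10 stimulated, 32.4 and 31.9 in vehicle stimulated, 22.2 and 17.2 in Compound 10 unstimulated and 28.4, 29.7 and 21 CPM in vehicle unstimulated libraries. Its 3 stimulated Compound 10 libraries lay below all others. Zfp472 (-1.07) and Zfp410 (-1.09) were likewise lowest there. Zfp410, whose protein activates the Chd4 gene in erythroid cells, had 24.2, 33.9 and 35.6 CPM in Compound 10 stimulated, 57.2 and 52.8 in vehicle stimulated, 60.7 and 69.6 in Compound 10 unstimulated and 54.3, 49.2 and 58.3 CPM in vehicle unstimulated libraries. Zfp46 had a difference of -1.68. Without vehicle stimulated replicate 1 the edgeR adjusted p was 0.0889 for Zfp748, 0.0985 for Zfp472, 0.142 for Zfp410 and 0.103 for Zfp46, and without Compound 10 unstimulated replicate 1 it was 0.0624 for Zfp748 and 0.0675 for Zfp46. Leaving out vehicle stimulated replicate 2 gave 0.0782 for Zfp748, 0.0980 for Zfp472, 0.0989 for Zfp410 and 0.0665 for Zfp46. Zfp46 was not called without Compound 10 stimulated replicate 1 (0.0511), nor Zfp472 without vehicle unstimulated replicate 2 (0.0588), Compound 10 unstimulated replicate 2 (0.0759) or Compound 10 stimulated replicate 2 (0.0537). Zfp410 was also lost without vehicle unstimulated replicate 1 or 2, Compound 10 unstimulated replicate 2, or Compound 10 stimulated replicate 1 or 2 (edgeR adjusted p between 0.0511 and 0.103).

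Because the compound is described as acting on NFAT:AP-1, the 250 bases before the start of each gene (RefSeq, GRCm38.p6) were searched on both strands for the AP-1 motif TGANTCA, the NFAT core GGAAA and the cyclic AMP response element TGACGTCA. Entries were found for 202 of the 240 members. AP-1 motifs were in 7 (3.47%), NFAT cores in 128 (63.4%) and cyclic AMP response elements in 6 (2.97%), beside 4.01%, 53.9% and 2.77% of 9804 tested genes with an entry. An AP-1 motif within 15 bases of an NFAT core was in 2 members (0.990%) and in 0.439% of these genes. The 22 members with an entry that rose with stimulation under vehicle had 0 AP-1 motifs and 11 with an NFAT core (50%), and the 78 that fell had 3 (3.85%) and 54 (69.2%). A match is only a run of letters. The 4 stretches shown belong to Zfp948 and Zfp386, which had the lowest adjusted p of the interaction, and to Zfp189 and Zfp426, which had the lowest for the compound in stimulated cells, with NFAT cores and response elements in capitals and read toward the gene.
Zfp948 (chr17:21566728-21566977, + strand): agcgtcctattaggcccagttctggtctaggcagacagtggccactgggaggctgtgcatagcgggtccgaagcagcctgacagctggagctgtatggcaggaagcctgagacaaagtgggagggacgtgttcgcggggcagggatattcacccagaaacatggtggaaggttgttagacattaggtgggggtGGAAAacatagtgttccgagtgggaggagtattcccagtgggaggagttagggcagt
Zfp386 (chr12:116047474-116047723, + strand): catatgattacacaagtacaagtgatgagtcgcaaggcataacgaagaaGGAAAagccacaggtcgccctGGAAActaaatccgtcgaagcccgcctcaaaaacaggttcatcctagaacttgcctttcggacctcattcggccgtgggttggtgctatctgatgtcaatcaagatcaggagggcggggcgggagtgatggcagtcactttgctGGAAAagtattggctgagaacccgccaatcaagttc
Zfp189 (chr4:49520926-49521175, + strand): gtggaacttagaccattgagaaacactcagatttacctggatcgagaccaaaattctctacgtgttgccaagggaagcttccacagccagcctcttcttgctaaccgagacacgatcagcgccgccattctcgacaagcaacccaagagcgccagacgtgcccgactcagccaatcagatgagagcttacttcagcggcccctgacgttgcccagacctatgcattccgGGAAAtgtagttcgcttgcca
Zfp426 (chr9:20492747-20492996, - strand): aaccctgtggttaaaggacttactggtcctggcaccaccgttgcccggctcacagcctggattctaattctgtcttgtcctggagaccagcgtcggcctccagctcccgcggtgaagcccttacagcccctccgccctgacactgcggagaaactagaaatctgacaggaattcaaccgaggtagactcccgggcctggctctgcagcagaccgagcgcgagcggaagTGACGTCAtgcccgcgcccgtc
Zfp386 held 3 NFAT cores, Zfp948 and Zfp189 held 1 each, and Zfp426 held 0 but had a cyclic AMP response element. None of the 4 held the AP-1 motif.

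The medians differed between subdivisions of the family, whose sets were not matched for level. With stimulation under vehicle 19.5% of all tested genes were called higher and 19.5% lower. With stimulation under vehicle, members with a KRAB pattern had a median log2 fold change of -0.66 (9 higher and 49 lower of 133) and those without it -0.29 (19 higher and 39 lower of 107). With Compound 10 the stimulation medians were -0.64 and -0.16. For the compound the medians were -0.38 and -0.11 in stimulated and -0.29 and -0.21 in unstimulated cells. Members in a chromosome cluster had medians of -0.82, -0.74, -0.35 and -0.44 in the 4 comparisons, and members outside clusters -0.23, -0.26, -0.11 and -0.16. Of 43 members with at most 5 fingers, 11 rose and 13 fell with stimulation under vehicle (median -0.19), whereas of 45 with over 15 fingers 1 rose and 16 fell (median -0.65).

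**Figure D5:**
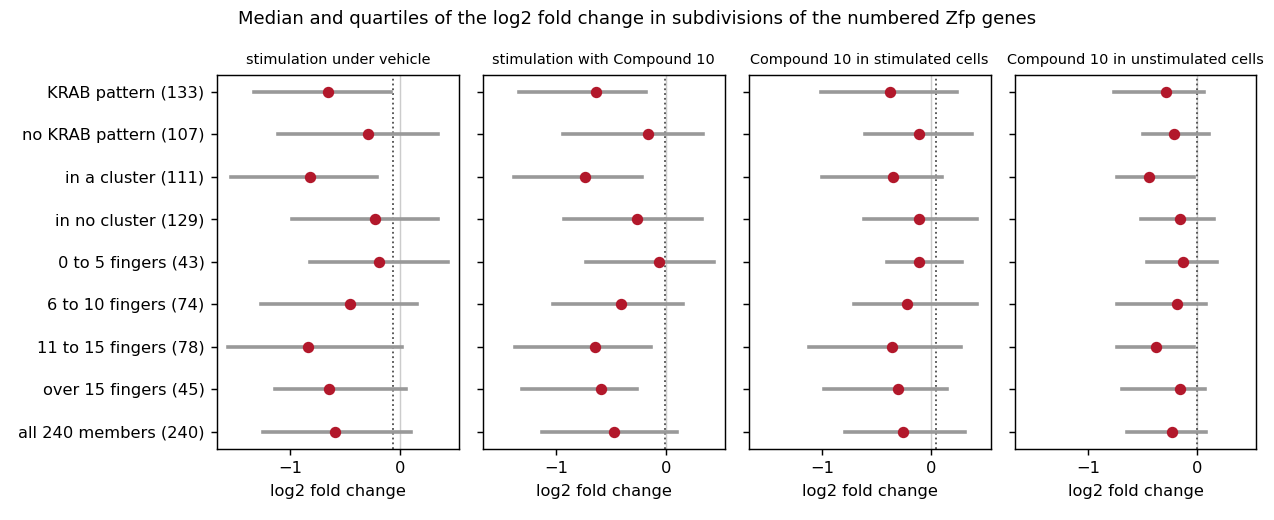
Median (point) and quartiles (bar) of the log2 fold change in subdivisions of the 240 members, with the number of members in brackets, in 4 comparisons; the dotted line is the median of all tested genes. KRAB pattern and cluster membership each go with a lower median in all 4 panels, most widely for stimulation under vehicle in clusters (-0.82 against -0.23). The sets were not matched for level.

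The 60 members with the highest mean TPM had a median of 0.02 with stimulation under vehicle (14 higher and 17 lower), against -0.63, -0.66 and -0.95 in the next 3 sets of 60 with successively lower TPM. The low-level sets hold the members near the count threshold, which weights the unstimulated libraries, so no relation between level and shift can be read from these medians. The 60 members with the longest main transcripts had a median of -0.07, against -0.79, -0.66 and -0.62 for the shorter ones. Members with little sequence in common with other genes (197, under 20% of their 31-base words) had medians of -0.47, -0.47, -0.25 and -0.21 in the 4 comparisons. The limit from the count threshold may also apply to the sets by KRAB pattern, cluster and fingers. The part of level, length, KRAB pattern, fingers and clusters in the medians was not tested. Length, fingers and clusters overlap among members.

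In the chromosome 17 cluster of 18 members, stimulation under vehicle raised 2 and lowered 8 (median -0.94), and with the compound raised 2 and lowered 5 (median -0.64). Beside this, 19.5% of all tested genes were called higher and 19.5% lower under vehicle, and 12.9% and 13.7% with the compound. Zfp948 and the nearby Zfp53 and Zfp52 moved in different ways. Zfp53 had 15.3, 22.9 and 22.8 CPM in Compound 10 stimulated, 25.1 and 23.1 in vehicle stimulated, 104 and 80.8 in Compound 10 unstimulated and 51.7, 55.8 and 51.8 CPM in vehicle unstimulated libraries. It fell by 1.14 with stimulation under vehicle, while Zfp52 rose by 1.21 (43.7 and 43.3 in stimulated against 19.8, 22.6 and 14.2 CPM in unstimulated libraries). The call of Zfp52 was lost with library totals only (0.42).

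A pair of clusters on chromosome 7 was picked out after their values were seen. In the cluster of 13 members from Zfp84 to Zfp146 (29768552 to 30169750), Compound 10 raised 1 and lowered 7 in stimulated cells, with a median of -0.90, and stimulation with the compound lowered 8 (median -1.29). For Compound 10 in stimulated cells 10.5% of all tested genes were called higher and 12.9% lower. For stimulation with the compound 13.7% were called lower. Zfp84, at one end, had 28.2, 33.2 and 33.5 CPM in Compound 10 stimulated against 54.6 and 54.6 CPM in vehicle stimulated libraries and fell by 0.79. Zfp940 had 4.09, 3.68 and 2.92 against 10.8 and 11.1 CPM. In the cluster of 8 from Zfp553 to Zfp646 (127233061 to 127885996), Compound 10 lowered 5 in stimulated cells (median -0.91). Zfp764 there had 5.42, 2.83 and 4.07 against 13.8 and 20.3 CPM.

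Among the 20 members with a described role, 7 were called in none of the 5 comparisons: Zfp106, Zfp217, Zfp335, Zfp445, Zfp609, Zfp644 and Zfp831. Zfp335, which is needed for the making of naive T cells in mice, had 59.8, 61.6 and 50.6 CPM in Compound 10 stimulated, 95.5 and 83.2 in vehicle stimulated, 53.4 and 26.5 in Compound 10 unstimulated and 72.3, 52.7 and 27.8 CPM in vehicle unstimulated libraries. Its unstimulated libraries were widely spread, and the lowest of each pretreatment (26.5 and 27.8 CPM) belonged to the same index run. Zfp445, a guardian of imprinted genes, had 3.54 to 7.28 CPM in Compound 10 stimulated, 8.74 to 9.79 in vehicle stimulated, 5.05 to 11.2 in Compound 10 unstimulated and 7.31 to 14.9 CPM in vehicle unstimulated libraries. Zfp644, a partner of the histone methyltransferases G9a and GLP, stayed between 29.6 and 45.9 CPM in all libraries.

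Related gene lists were counted beside the members, with the shares of all tested genes (19.5% higher and 19.5% lower under vehicle, 12.9% and 13.7% with the compound) as background. Of 22 tested Zfp genes with a letter after the number, stimulation under vehicle raised 2 and lowered 5 (median -0.14), and with the compound raised 2 and lowered 9 (median -0.82). The 2 that rose were Zfp36l1 and Zfp36l2 both times, which are named after Zfp36, the gene set aside from the members. Zfp36l1 rose by 4.02 and 2.74, and Zfp36l2 by 1.97 and 1.15. Of 17 tested Zkscan and Zscan genes, zinc finger genes with a SCAN domain, 0 rose and 7 fell under vehicle (median -0.84), and 0 rose and 5 fell with the compound (median -0.72). Of 37 genes with a Zbtb symbol, most of them with a BTB domain, 7 were higher and 7 lower under vehicle (18.9% each, near the background). With the compound 5 were higher and 8 lower. Of 12 Klf genes, 4 rose and 4 fell under vehicle. The genes of 25 partners in KRAB silencing had 7 higher and 5 lower under vehicle. In stimulated cells Compound 10 raised 3 of these 25 and lowered 3 (Trim28, Chd4 and Dnmt3a). That is near the background of 10.5% of all tested genes higher and 12.9% lower. In unstimulated cells it raised 2 and lowered 3 (Trim28, Daxx and Atf7ip), beside 4.83% and 3.82% of all tested genes.

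The libraries carry sample index numbers in 3 runs, and what a run stands for is not labelled. These runs cross the groups only in part. Run 1 held no Compound 10 unstimulated library, and run 3 held no vehicle stimulated library. Each comparison of groups includes a group that lacks a run, so none was balanced for run. Within a run, the median member difference (log2 of CPM plus 0.5) was -0.64 and -0.52 for stimulation under vehicle, -0.45 and -0.41 for stimulation with Compound 10, -0.24 and -0.19 for Compound 10 in stimulated cells and -0.22 and -0.22 in unstimulated cells. The medians of all tested genes in the same pairs of libraries lay between -0.03 and 0.02.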

How the data were processed

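RNA-seq libraries of 4 groups of mouse naive CD4 T cells were analysed, 10 in all. Per the submitters' processing notes, reads were trimmed with cutadapt and quantified with kallisto, with mm10 as the genome build. Tool versions are not stated in the labels or file headers. The authors deposited estimated counts and TPM per transcript. Estimated counts were summed per gene with the GENCODE annotation supplied for that build, in which 1403 of 109617 transcripts (0.507 to 0.671% of counts per library) had no match and were left out, and were rounded to whole numbers. Genes passing edgeR's filterByExpr by group (14417) were fitted with 4 group means and TMM factors and tested with edgeR's quasi-likelihood test (edgeR 4.0.16, limma 3.58.1, R 4.3.3). P-values were adjusted by Benjamini-Hochberg over all genes tested and called under 0.05. Log2 fold changes are printed ± SE, and CPM is scaled with TMM factors unless said otherwise.

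Library totals lay between 10694591 and 33486259 estimated counts, and the small number of libraries per group (2 or 3) limits precision. Replicate pairs differed by more than sampling noise, at a chi-square per degree of freedom of 14.83 to 120.26. TMM factors spanned 0.731 to 0.850 for stimulated libraries and 1.199 to 1.343 for unstimulated ones, so the fold changes of stimulation depend on this scaling. Named genes were those with the lowest adjusted p in each direction among called members at an average log2 CPM of at least 2 (6 per direction with no overlap between the groups' libraries, 4 for the interaction), 20 members with a described role, called members of the largest cluster and the 8 members with the highest TPM; others are values only or were chosen after their values were seen. Members and lists were chosen with earlier results of these data known. The fit was tested on simulated data with 200 changed genes. Alternatives were RLE, upper-quartile and no scaling factors, no filter, DESeq2 1.42.0, protein-coding transcripts only, blocks for replicate number and index run, and leaving out each library.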

Additional observations from a re-analysis of the deposited data

Results flagged for a closer look

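The effect of stimulation with Compound 10 differed from that under vehicle, by the interaction term (edgeR adjusted p under 0.05), in 15 members. That is 6.25% of the 240, near the 6.96% of all tested genes that were called, so the share is not a result about the family. The difference of log2 fold changes was positive for Zfp784 (2.26), Zfp948 (1.76), Zfp984 (1.72), Zfp386 (1.52), Zfp277 (1.48), Zfp512 (1.41), Zfp64 (1.04) and Zfp426 (0.95). It was negative for Zfp46 (-1.68), Zfp189 (-1.59), Zfp748 (-1.35), Zfp410 (-1.09), Zfp472 (-1.07), Zfp53 (-1.05) and Zfp84 (-0.93). Without vehicle stimulated replicate 1 there was 1 call, and without vehicle stimulated replicate 2 there were 3. Zfp784 had 1.33, 0.857 and 1.15 CPM in Compound 10 stimulated, 1.16 and 0.866 in vehicle stimulated, 1.15 and 1.28 in Compound 10 unstimulated and 5.64, 4.71 and 5.59 CPM in vehicle unstimulated libraries, so the vehicle unstimulated libraries stood apart, and 94.8% of its 31-base words also belong to the antisense gene Zfp865.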

How the results depend on the processing

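Over 96 pairs of a named member and a comparison, 1728 alternative values were computed: 1524 kept direction and side of the threshold, 201 lost the call, 1 gained one and 2 changed sign, both with library totals only (Zfp330 under vehicle, -0.04, and Zfp622 with Compound 10, -0.08). Of the 95 called pairs, 46 lost the call without at least 1 library and 24 under another setting. Library totals gave 5 higher and 165 lower members (median -1.36) for stimulation under vehicle, 4 and 140 (-1.05) with Compound 10, a median of -0.15 for the compound in stimulated cells, 4 higher in unstimulated cells, and 3 negative interactions (median 0.17). Upper-quartile factors gave medians of -0.38 for stimulation with Compound 10, -0.13 with 24 higher for the compound in stimulated cells, 0.07 for the interaction, and 11 lower in unstimulated cells. Without a filter the median under vehicle was -0.69. DESeq2 gave 33 lower in unstimulated cells and 14 negative interactions, and protein-coding transcripts gave 11 lower in unstimulated cells. Same-numbered libraries correlated between -0.279 and 0.331 in their deviations from group means, and libraries of one index run between -0.052 and 0.464. In groups of 2 libraries the deviations mirror each other, so these values cannot show whether replicate numbers or index runs pair libraries. With the replicate block, stimulation with Compound 10 had 24 higher (median -0.38), the compound in stimulated cells 22 higher and the interaction 11 negative (median 0.12). With the index run block there were 28 higher in stimulated cells, 36 lower in unstimulated cells, and 13 positive and 17 negative interactions. The cause was not tested. Without each library in turn, higher, lower and median ranged over 20 to 29, 53 to 94 and -0.63 to -0.47 for stimulation under vehicle, 6 to 16, 57 to 84 and -0.58 to -0.41 with Compound 10, 5 to 19, 27 to 57 and -0.27 to -0.20 for the compound in stimulated cells, 2 to 8, 3 to 19 and -0.33 to -0.14 in unstimulated cells, and 1 to 10, 0 to 10 and -0.11 to 0.13 for the interaction.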
